A study of Mus musculus with 13 samples.

Results

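The genes described here are 44 mouse genes that copy the genome or supply the nucleotides for it, out of 23361 gene symbols in the files. They were taken by name from a list whose rule holds no measured value, although the list was drawn up with earlier results of these data known. All 44 were found. They comprise 12 genes of origin licensing, 5 of origin firing, 8 of DNA polymerases and primase, and 10 of the sliding clamp, its loader, the single-strand binding protein and Okazaki fragment joining. A further 5 supply deoxynucleotides, and 4 are transcriptional regulators or keep up DNA methylation behind the fork.

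RNA was measured in liver tumours of Mst1-/-; Mst2Flox/Flox mice on a mixed C57BL/6; 129Sv background. Mst1 and Mst2 encode the kinases of the Hippo pathway that restrain the coactivator Yap. Mst1 is deleted in every cell, and Mst2 was removed in the liver by Cre carried on an adenovirus, so both groups share the loss of both kinases. Mice with tumours seen by ultrasound received lipid nanoparticles into a vein for 9 days, and no untreated or tumour-free group is among the samples used here. In 8 libraries (siLuc) the particles carried an siRNA against luciferase, and in 5 libraries (siYap) an siRNA against Yap. The labels give no sex or age and do not say which libraries come from separate animals or tumours, so p-values measure only the spread between these libraries.

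Replication begins when the origin recognition complex (Orc proteins), Cdc6 and Cdt1 load the Mcm2-7 ring onto DNA. At the start of S phase, Mcm10, Cdc45 and the GINS complex turn the loaded ring into an active helicase. Polymerase alpha-primase then lays primers, the Rfc complex loads the Pcna clamp, and polymerases delta and epsilon extend the strands. Ribonucleotide reductase, thymidine kinase, thymidylate synthase and dUTPase feed the polymerases. Many of these genes are transcribed as cells pass from G1 into S phase, under E2F factors that bind their promoters, and hepatocytes of a healthy adult liver seldom divide.

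E2F factors bind sites of the kind TTTCCCGC or TTTGGCGC, and genes with such letters close to their start are the ones whose promoters are shown here. The RefSeq promoter table (build GRCm38.p6) held 37 of the 44 genes, and the 250 bases before each start were searched on both strands for TTTCCCGC, TTTGGCGC, TTTCGCGC and TTTGCCGC, with overlapping matches allowed. A match was present for 10 of the 37 genes (27.03%). A match was held by 1.86% of all 32851 promoters of that source, and 2.157% of all its genes had one. The count depends on the window: with the 50 bases after the start included, 16 of the 37 genes and 2.265% of promoters held a match. The stretches around the matches are shown for the 6 genes with the smallest p of the treatment test among these 10, each 5′ to 3′ on the strand of the gene, with the matching letters in capitals.
Rfc3: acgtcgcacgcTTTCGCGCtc
Mcm6: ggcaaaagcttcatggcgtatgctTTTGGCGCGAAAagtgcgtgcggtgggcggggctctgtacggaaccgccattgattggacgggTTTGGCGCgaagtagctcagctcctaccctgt
Pola1: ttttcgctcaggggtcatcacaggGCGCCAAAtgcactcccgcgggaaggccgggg
Gins3: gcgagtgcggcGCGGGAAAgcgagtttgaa
Mcm7: aatttcgaaccGCGGGAAAcagggtgtcca
Uhrf1: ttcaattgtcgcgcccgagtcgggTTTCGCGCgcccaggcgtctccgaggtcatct
They lie at chr5:151651209-151651229 (minus strand), chr1:128359721-128359839 (minus), chrX:93632262-93632317 (minus), chr8:95633507-95633536 (plus), chr5:138172030-138172059 (minus) and chr17:56304104-56304159 (plus). The Mcm6 promoter held 3 matches in 2 separate sites, because the letters on its left read as a match on each strand. The Rfc3, Gins3 and Mcm7 stretches overlap an exon of the same gene in GENCODE M21, and the Mcm7 stretch also an exon of Ap4m1. The Mcm6, Pola1 and Uhrf1 stretches overlap no exon there.

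The other 4 genes with a match were Cdc6, Mcm5, Dnmt1 and Orc1. Of the genes with a promoter entry that were called lower after siYap (below), 7 of 18 held a match, and of those not called 3 of 19. The CCAAT box, bound by NF-Y, was searched as CCAAT and was present for 24 of the 37 genes (64.86%), against 37.49% of all genes in that source. The cell cycle homology region, searched as TTTGAA, was present for 7 (18.92%) against 18.26%. The TEAD letters GGAATG, which the DNA-binding partners of Yap recognise, were present for 4 (10.81%) against 14.36%. A match of letters does not show that a factor binds there.

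The siRNA target was checked ahead of the other genes. Yap1 had a median of 10.2 FPKM in siLuc libraries, with a range of 8.10 to 11.9. FPKM are fragments per kilobase of transcript, scaled to the depth of the library, so that genes of different length can be set side by side. In the siYap libraries 1 to 5 Yap1 was at 4.08, 4.17, 2.72, 2.23 and 3.23 FPKM, all below the siLuc range. The fitted log2 fold change was -1.58 ± 0.17 (SE), with adjusted p = 2.36e-05.

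Each library held between 23637021 and 37043914 fragments. The RNA precursor of the ribosome (Rn45s) stood at 1160 CPM (counts scaled to the library total) in siYap 1 and 1882 in siYap 3, against 479.5 to 811.8 in the others. The library siLuc 8 held 28874 fragments of Y-linked genes and no other library more than 11. Hepatocyte markers summed to between 11000 and 24400 FPKM in every library. Fragments of all genes were tested with edgeR's quasi-likelihood test, and a gene was called at an adjusted p under 0.05. Of 15132 genes tested, 14.8% were called lower in siYap and 16.0% higher, and the median log2 fold change was -0.0026.

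After Yap siRNA, 21 of the 44 replication and nucleotide genes fell and none rose (47.73% lower, beside 14.8% of all genes). The median log2 fold change of the 44 was -0.71, with a range of -1.83 for the helicase subunit Mcm6 to 0.44 for the transcription factor E2f2. It was negative for 39 of them (88.64%), against 50.22% of all genes. All 44 passed the filter on low counts. Without adjustment 26 had p under 0.05 towards lower and 0 towards higher, and no member rose under DESeq2 or limma either. The 5 positive values belonged to Orc1, Pola2, Pold2, Rpa1 and E2f2. In a bulk tumour, fewer cells in S phase and less of these RNAs per cell cannot be told apart.

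**Figure D1:**
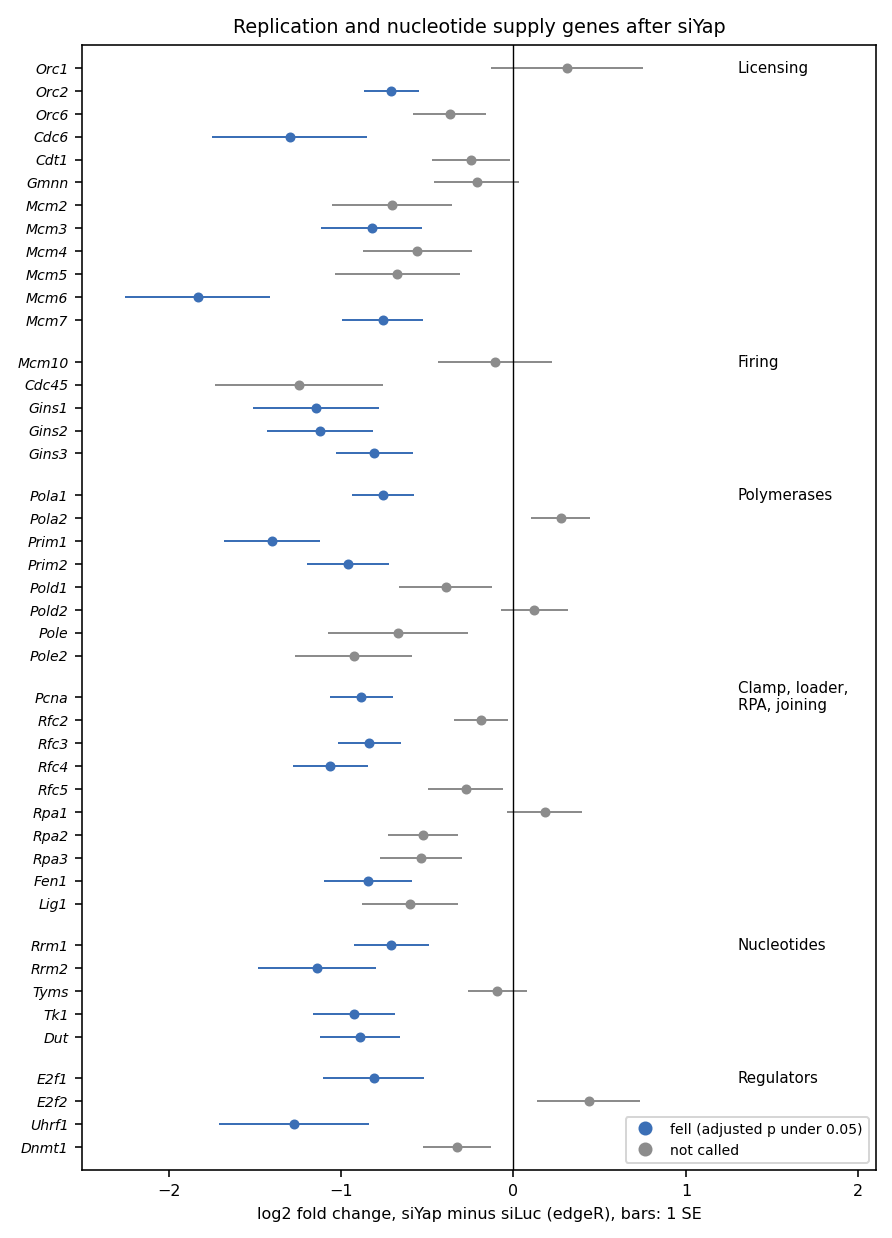
Log2 fold change of each of the 44 genes, siYap minus siLuc, from edgeR, grouped by role; bars are standard errors, and colour separates the 21 genes that fell from those not called. Most points lie left of 0, from -1.83 for Mcm6 to 0.44 for E2f2, and the 5 positive values are not called.

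The count of genes that fell in each role stands beside 14.8% of all genes called lower, and 1 gene weighs heavily in roles this small. Origin licensing was represented by 12 genes, of which 5 fell (Orc2, Cdc6, Mcm3, Mcm6 and Mcm7), with a group median of -0.69. Mcm6, a subunit of the helicase ring (chr1:128331590-128359664, minus strand in GENCODE M21), had the largest fall of the 44 genes. It stood between 8.51 and 57.2 FPKM in siLuc libraries, with a median of 21.1. In siYap libraries 1 to 5 it stood at 11.9, 8.195, 5.29, 7.10 and 5.06 FPKM. The siYap libraries were all below the siLuc median and 4 of 5 below the siLuc minimum, which was siLuc 1. The fitted level was 3.56-fold lower (log2 fold change -1.83 ± 0.42, adjusted p = 0.00537).

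Orc2, a subunit of the origin recognition complex (chr1:58462771-58505109, minus), ranged from 7.18 to 12.1 FPKM in siLuc, with a median of 8.94. It was at 6.41, 5.76, 3.88, 6.16 and 6.03 FPKM in siYap libraries 1 to 5. The groups did not overlap, and siYap 3 was far below the other siYap libraries. The log2 fold change was -0.71 ± 0.16 (adjusted p = 0.00411). Non-overlapping falls of this kind were found for 4 of the 44 genes (9.09%), Orc2, Prim1, Pcna and Rfc4, against 5.66% of all genes tested. No gene of the 44 lay above all siLuc libraries, where 5.57% of all genes did.

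Mcm7 fell from 17.6 ± 6.78 FPKM (SD, n = 8) to 10.2 ± 1.84 (n = 5), and Mcm3 from 8.59 ± 4.09 to 4.67 ± 0.978. Cdc6, the loader of the ring, fell from 1.28 ± 0.741 to 0.526 ± 0.272 FPKM. Their adjusted p were 0.0236, 0.0445 and 0.0403. The call on Mcm7 was lost without siYap 3 (0.0717) or siYap 4 (0.0527). Mcm3 lost its call without any 1 of 9 libraries (siLuc 2, 3, 6, 7 and 8 and siYap 2 to 5) and Cdc6 without any 1 of 8 (the same but for siLuc 7). The adjusted p rose to at most 0.118 and 0.0957, in each case without siYap 3.

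The other ring subunits were not called. Mcm2 stood at 7.03 ± 4.27 FPKM in siLuc and 4.11 ± 0.608 in siYap (adjusted p = 0.136). For Mcm4 the means were 4.88 and 3.25 FPKM (0.191), and for Mcm5 5.96 and 3.56 (0.168, and 0.0260 without siLuc 1). Of the loading factors, Orc6 had a log2 fold change of -0.37 ± 0.21 and Cdt1 of -0.25 ± 0.23, and Orc1 had one of 0.31 ± 0.44 on only 6 to 53 fragments per library. Geminin (Gmnn), the inhibitor of Cdt1, had one of -0.21 ± 0.25 at 14.8 ± 3.86 and 12.8 ± 4.53 FPKM.

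Origin firing was represented by 5 genes. Of these, the 3 GINS subunits Gins1, Gins2 and Gins3 fell, and the group median was -1.12. The remaining GINS subunit, Gins4, is not among the 44 genes and was not called, at 14.4 ± 2.41 FPKM in siLuc and 14.65 ± 3.54 in siYap (log2 fold change 0.03 ± 0.16, adjusted p = 0.895). Gins2 (chr8:120578633-120589304, minus) had the smallest p. It ranged from 1.65 to 5.84 FPKM in siLuc, with a median of 3.66, and stood at 2.0, 1.75, 1.22, 1.55 and 1.505 FPKM in siYap libraries 1 to 5. The 2 lowest siLuc libraries, siLuc 1 at 1.65 and siLuc 4 at 1.88 FPKM, lay within the range of the siYap values. The log2 fold change was -1.12 ± 0.31 (adjusted p = 0.0132).

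Gins1 (chr2:150905400-150931280, plus) had the highest mean level over all libraries among the listed genes of this role. It ranged from 9.40 to 46.6 FPKM in siLuc, with a median of 20.7. It was at 8.50, 10.2, 3.76, 14.6 and 12.2 FPKM in siYap, so 3 siYap libraries lay above the lowest siLuc library. Its log2 fold change was -1.14 ± 0.37 (adjusted p = 0.0285). The call was lost without siYap 3 (0.0736) or siYap 1 (0.0600). Gins3 went from 1.25 ± 0.269 FPKM in siLuc down to 0.723 ± 0.148 in siYap (adjusted p = 0.0134), a log2 fold change of -0.81 ± 0.22. Cdc45, which joins the ring with GINS, had means of 4.44 and 1.89 FPKM and was not called (log2 fold change -1.24 ± 0.49, adjusted p = 0.0661). Without siLuc 1 its adjusted p was 0.0103, and without siYap 1 it was 0.0446. Mcm10 stood at 2.57 ± 1.27 FPKM in siLuc and 2.32 ± 0.750 in siYap.

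Of the 8 genes for polymerases and primase 3 fell, all of them in polymerase alpha-primase (group median -0.71). Prim1, the catalytic primase subunit (chr10:128015168-128030037, plus), had the smallest p of the 44 genes. It ranged from 9.61 to 25.5 FPKM in siLuc, with a median of 14.5, and was at 8.11, 7.63, 3.58, 4.92 and 7.39 FPKM in siYap libraries 1 to 5. Every siYap library lay below every siLuc library. The log2 fold change was -1.40 ± 0.28 (adjusted p = 0.00195).

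Prim2, the other primase subunit, fell from 8.67 ± 2.92 to 4.42 ± 0.978 FPKM (adjusted p = 0.00746). Pola1, the catalytic subunit, fell from 10.4 ± 2.41 to 6.16 ± 0.983 FPKM (adjusted p = 0.00597). Pola2, the accessory subunit of the same complex, stood at 4.26 ± 0.904 in siLuc and 5.08 ± 0.586 FPKM in siYap and was not called (log2 fold change 0.27 ± 0.17, adjusted p = 0.233). Of polymerase delta, Pold1 had a log2 fold change of -0.39 ± 0.27 and Pold2 one of 0.12 ± 0.20. Of polymerase epsilon, Pole had one of -0.67 ± 0.41 (adjusted p = 0.226, and 0.0419 without siLuc 1). Pole2 had one of -0.93 ± 0.34 (adjusted p = 0.0508). It was called without siLuc 1 (0.0128), siLuc 5 (0.0347) or siYap 1 (0.0314).

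Among the 10 genes of the clamp, the clamp loader, single-strand binding and fragment joining, 4 fell (Pcna, Rfc3, Rfc4 and Fen1), with a median of -0.57. Pcna, the sliding clamp (chr2:132249162-132253314, minus), had the highest level of the 44 genes. It ranged from 67.6 to 121.9 FPKM in siLuc, with a median of 76.6, and was at 37.8, 55.4, 30.5, 54.2 and 49.8 FPKM in siYap libraries 1 to 5. The groups did not overlap, and the log2 fold change was -0.88 ± 0.18 (adjusted p = 0.00248). Pcna has pseudogenes annotated in GENCODE M21, and how the authors' counting shared out reads between copies is not given in the sources used here.

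Rfc4, a subunit of the clamp loader (chr16:23113943-23127737, minus), had the smallest p of this role. It ranged from 7.04 to 13.3 FPKM in siLuc, with a median of 7.92, and was at 4.91, 5.13, 3.81, 2.67 and 4.99 FPKM in siYap. The groups did not overlap, and the log2 fold change was -1.06 ± 0.22 (adjusted p = 0.00233). Rfc3 fell from 14.5 ± 3.47 to 8.05 ± 1.66 FPKM (adjusted p = 0.00341). Fen1, the flap nuclease that trims Okazaki fragments, fell from 6.42 ± 2.37 to 3.53 ± 0.789 FPKM (adjusted p = 0.0210, and 0.0632 without siYap 3).

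The other loader subunits, Rfc2 at -0.19 ± 0.16 and Rfc5 at -0.28 ± 0.22 on the log2 scale, were not called. Of the single-strand binding protein, Rpa1 stood at 24.3 ± 6.99 FPKM in siLuc and 27.4 ± 9.45 in siYap. Rpa2 and Rpa3 had log2 fold changes of -0.53 ± 0.20 (adjusted p = 0.0629) and -0.53 ± 0.24 (0.0992). Without siLuc 1 the adjusted p of Rpa2 was 0.0400, without siLuc 7 it was 0.0416, and that of Rpa3 was 0.0254 without siYap 4. Lig1, the ligase that seals the fragments, had a log2 fold change of -0.60 ± 0.28 (adjusted p = 0.114, and 0.0158 without siYap 1).

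In nucleotide supply 4 of 5 genes fell, with a median of -0.89. Tk1, the salvage kinase for thymidine (chr11:117815526-117826092, minus), had the smallest p and the highest level of the 5. It ranged from 9.48 to 35.2 FPKM in siLuc, with a median of 21.0, and was at 8.77, 13.3, 12.7, 12.96 and 10.04 FPKM in siYap. The lowest siLuc library, siLuc 1, lay among the siYap values, and the next lowest was at 15.4 FPKM. The log2 fold change was -0.92 ± 0.24 (adjusted p = 0.00983).

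Both subunits of ribonucleotide reductase fell. Rrm2, the subunit that is made in S phase, had means of 7.59 ± 3.19 FPKM in siLuc and 3.60 ± 1.555 in siYap (log2 fold change -1.14 ± 0.34, adjusted p = 0.0216), and Rrm1 of 12.97 ± 3.77 and 8.02 ± 1.82 (-0.71 ± 0.22, 0.0225). Without siYap 3 their adjusted p were 0.0656 and 0.0680. Dut, the dUTPase, fell from 4.63 ± 1.21 to 2.53 ± 0.575 FPKM (adjusted p = 0.0101). Thymidylate synthase (Tyms), which makes dTMP anew, stood at 7.0 ± 1.36 and 6.49 ± 1.42 FPKM, with a log2 fold change of -0.09 ± 0.17 (adjusted p = 0.706). Tyms also has a pseudogene in the annotation. Only pseudogenes named after a member were searched, so other members may have copies under other names.

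Of the 4 regulators, E2f1 and Uhrf1 fell. Uhrf1 brings the DNA methyltransferase to newly copied DNA (chr17:56303321-56323486, plus). It ranged from 0.934 to 8.95 FPKM in siLuc, with a median of 4.01, and was at 3.09, 1.66, 1.89, 2.32 and 1.31 FPKM in siYap. The siYap values lay within the siLuc range only through siLuc 1, which was the lowest of all 13 libraries. The log2 fold change was -1.28 ± 0.43 (adjusted p = 0.0383). The call on Uhrf1 was lost without any 1 of 7 libraries (siLuc 2, 6 and 8 and siYap 2 to 5), with adjusted p up to 0.0922.

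Dnmt1, the methyltransferase itself (chr9:20907209-20959888, minus), ranged from 5.02 to 11.7 FPKM in siLuc, with a median of 6.92, and was at 7.49, 5.44, 7.04, 5.94 and 4.63 FPKM in siYap. The groups overlapped widely, and the gene was not called (log2 fold change -0.33 ± 0.20, adjusted p = 0.224). E2f1 fell from 2.63 ± 0.937 to 1.42 ± 0.639 FPKM (adjusted p = 0.0477), a call that was lost without any 1 of 10 libraries (all but siLuc 1 and 3 and siYap 3), with adjusted p up to 0.108 without siYap 4. E2f2 stood at 0.416 ± 0.146 and 0.538 ± 0.212 FPKM and was not called.

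**Figure D2:**
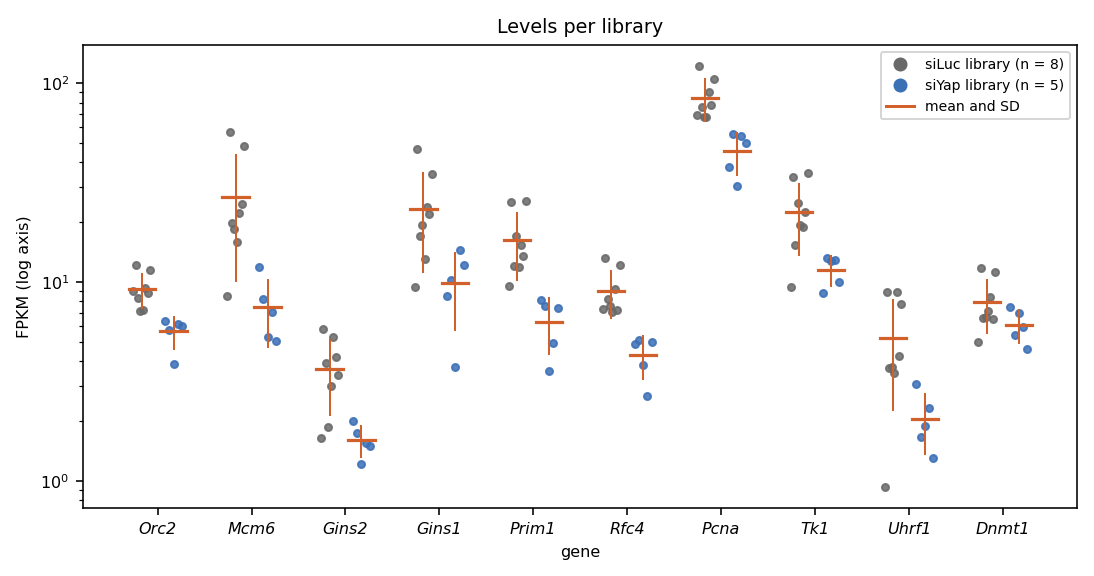
FPKM on a log axis in each of the 13 libraries for the 10 genes with the smallest p or the highest level in their role; points are libraries, coloured by group, and the crossed lines are the group mean and SD. Orc2, Prim1, Pcna and Rfc4 are separated without overlap, whereas the siYap values of Uhrf1 lie inside a siLuc range of 0.934 to 8.95 and those of Dnmt1 overlap with siLuc.

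The siLuc libraries differed among themselves in these genes. In siLuc 1 the level was the lowest of the 8 siLuc libraries for 34 of 44 genes and the lowest of all 13 libraries for 18. The highest siLuc value was in siLuc 2 for 28 genes and in siLuc 8 for 12. Expressed as log2 CPM minus the siLuc mean, the median over the 44 genes was -0.83 in siLuc 1, 0.64 in siLuc 2 and 0.48 in siLuc 8. In the other 5 siLuc libraries it lay between -0.24 and 0.15. In siYap libraries 1 to 5 it was -0.32, -0.56, -0.98, -0.60 and -0.72. The value of siLuc 1 was therefore below 4 of the 5 siYap libraries. Over all genes the same medians lay between -0.03 and 0.02.

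Both siLuc 1 and siLuc 2 carry the number 89 in the names of their files, which the labels do not explain. In FPKM, siLuc 2 was higher than siLuc 1 for 43 of the 44 genes, with a median ratio of 2.76 and a range of 0.948 for Rpa3 to 12.5 for Cdc45. For Rpa3 the fragments went the other way: log2 CPM minus the siLuc mean was 0.09 in siLuc 1 and 0.64 in siLuc 2. Over all genes tested the median ratio was 1.035. For the median gene of the 44 the highest siLuc library was 2.92 times the lowest, and the highest siYap library 1.885 times the lowest. The SD of log2 CPM was larger in siLuc than in siYap for 33 of the 44 genes, with medians of 0.473 and 0.390. Over all genes tested these medians were 0.334 and 0.400. For 16 of the 21 genes that fell, the siLuc minimum was siLuc 1.

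Set against the other 7 siLuc libraries, all siYap values were lower for 14 of the 44 genes, 13 of them among the 21 that fell, and for 7.32% of all genes tested. The library left out, siLuc 1, was the lowest of siLuc for 34 of the 44 genes. Leaving it out therefore favours a higher count in these genes, and the share of all genes is not an even comparison. With all 8 siLuc libraries, the siYap values of each of the 21 genes lay below the siLuc median. The 21 genes were called lower on these same libraries, so that count is no separate support. Without siLuc 1 the number of genes that fell was 26, and without siYap 3 it was 13. The share of all tested genes called in either direction was 30.77% and 21.8% in these fits, beside 30.8% with all libraries. The calls that held without each library in turn were those of 12 genes, namely Orc2, Mcm6, Gins2, Gins3, Pola1, Prim1, Prim2, Pcna, Rfc3, Rfc4, Tk1 and Dut. Without both libraries rich in ribosomal precursor, siYap 1 and siYap 3, 12 genes fell and the median of the 44 was -0.72. Of all tested genes 19.38% were called in either direction in that fit.

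**Figure D3:**
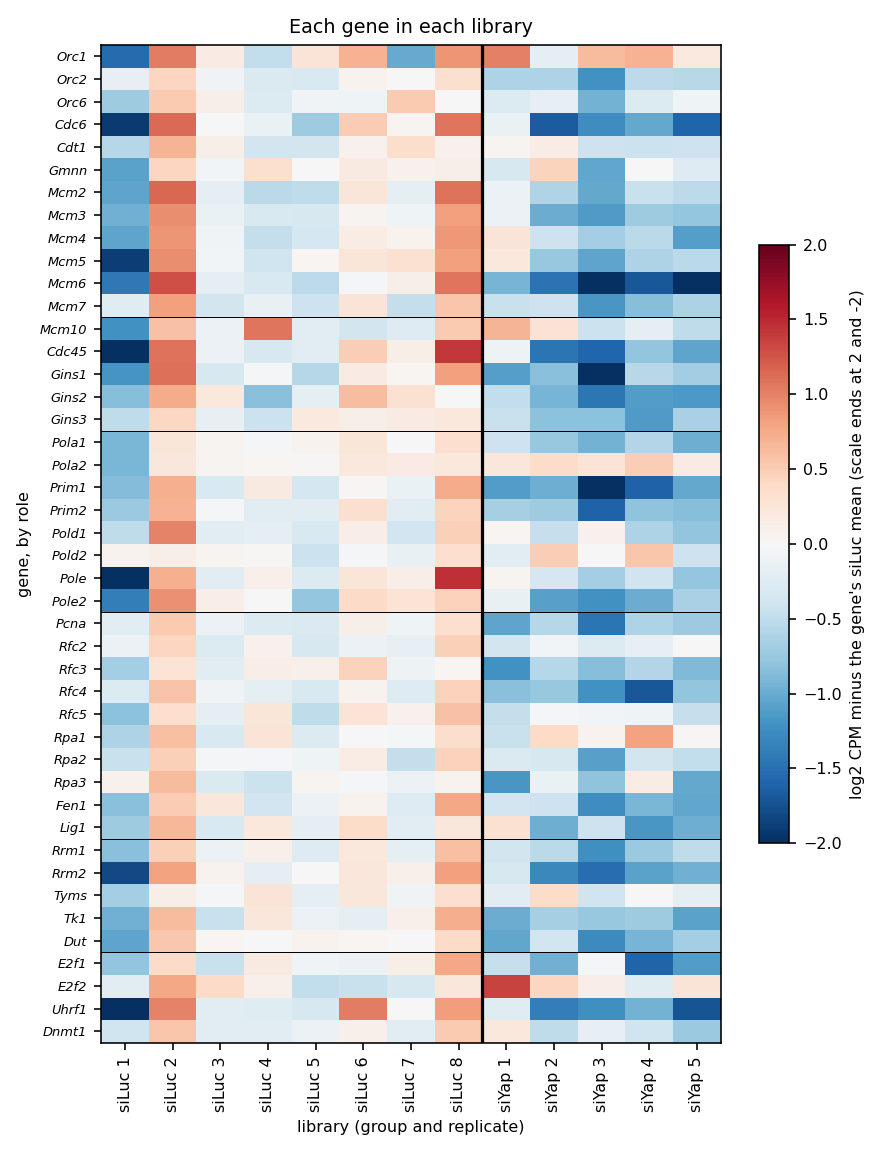
Heat map of log2 CPM minus the siLuc mean for the 44 genes (rows, by role) in the 13 libraries (columns, by group); blue is below and red above the siLuc mean, on a scale that ends at -2 and 2. The columns of siLuc 2 and siLuc 8 are mostly red, and that of siLuc 1 is blue in 42 of 44 rows.

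The codes in the file names begin with the digit 6, 7 or 8, which the labels do not explain, and each digit holds libraries of both groups. With digit 6 (2 libraries of each group) 33 of the 44 genes were lower in siYap, with a median difference in log2 CPM of -0.32. With digit 7 (5 siLuc, 2 siYap) 39 were lower, with a median of -0.75. With digit 8 (1 of each group) 43 were lower, with a median of -1.17. The siLuc library of digit 8 was siLuc 8, which held 28874 Y-linked fragments, against 7 in siYap 5. It also stood above the siLuc mean in these genes, with a median of 0.48 in log2 CPM. Of all 15132 genes tested, 7222, 7852 and 7637 were lower in siYap within digits 6, 7 and 8, with medians of 0.04, -0.03 and -0.01.

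Subunits of the same complex did not all move alike. The ratio of FPKM of 2 subunits within a library does not depend on the scaling of that library. It was compared between groups for 40 pairs within 10 complexes by an exact two-sided permutation test, with p-values adjusted over the 40. This family of pairs was chosen after the data were seen. Pairs that share a gene are not separate results, and the share among pairs of other genes was not computed. For single genes, 30.8% of all those tested were called in either direction. In 12 pairs the ratio differed between groups. They were the 5 pairs of Mcm6 with another ring subunit, the 3 pairs of Pola2 with another subunit of polymerase alpha-primase, and 4 pairs that each join Rfc3 or Rfc4 with Rfc2 or Rfc5.

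Mcm6 stood above Mcm2, Mcm3, Mcm4 and Mcm5 in every library, and by less in siYap. Against Mcm7 it stood at 1.38 times in siLuc and 0.7135 times in siYap, on the geometric mean. The log2 ratio of Mcm4 to Mcm6 was -2.37 ± 0.25 (SD, n = 8) in siLuc and -1.20 ± 0.16 (n = 5) in siYap, so Mcm4 stood at 0.194 and 0.436 of the Mcm6 level. The groups did not overlap, and the exact permutation p of 0.000777, the smallest that 1287 splits can give, became 0.00388 after adjustment. The ratios of Mcm2, Mcm3 and Mcm5 to Mcm6 rose by 1.11, 0.92 and 1.10 on the log2 scale with the same p. The ratio of Mcm6 to Mcm7 fell by 0.95 (exact permutation test, adjusted p = 0.0414), a call that was lost without any 1 of 10 libraries (all but siLuc 1 and 6 and siYap 1), with adjusted p up to 0.0909 without siYap 5. None of the 10 pairs of ring subunits without Mcm6 passed.

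In polymerase alpha-primase, Pola1 stood at 2.445 times the level of Pola2 in siLuc and at 1.21 times in siYap. The log2 ratio was 1.29 ± 0.09 in siLuc, a narrow spread that included siLuc 1 and siLuc 2, and 0.27 ± 0.28 in siYap. Between Pola2 and Prim1 the log2 ratio rose by 1.63, and between Pola2 and Prim2 by 1.22. All 3 had an adjusted p of 0.00388 in the exact permutation test. In these pairs, in the pairs of Mcm6 with Mcm2 to Mcm5 and in Rfc2 with Rfc4, the call held without each library in turn.

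In the clamp loader, Rfc2 stood at 1.66 times the level of Rfc4 in siLuc and 3.05 times in siYap (exact permutation test, adjusted p = 0.00388). The ratio of Rfc2 to Rfc3 rose by 0.65 and that of Rfc3 to Rfc5 fell by 0.58 (adjusted p of 0.0311 each, exact permutation test). The ratio of Rfc4 to Rfc5 fell by 0.81 (adjusted p = 0.0414, same test). The last 3 lost their call when single libraries were left out: Rfc2 with Rfc3 without any 1 of 9 (siLuc 2 to 5 and 7, siYap 1, 2, 3 and 5, adjusted p up to 0.0808, without siYap 3), Rfc3 with Rfc5 without siYap 1, 2 or 3 (up to 0.0808, without siYap 3), and Rfc4 with Rfc5 without any 1 of 8 (siLuc 1, 2, 3, 5 and 8, siYap 2 to 4, up to 0.135, without siYap 4). None passed among the 3 pairs of Orc1, Orc2 and Orc6, the 3 of Gins1, Gins2 and Gins3 and the 3 of the RPA subunits. Nor did the pairs Pold1 with Pold2, Pole with Pole2, Rrm1 with Rrm2 and Cdt1 with geminin. Subunits outside the 44 genes, such as Gins4, Orc4 and Pold3, were not paired. Where libraries that share a file-name number were averaged, leaving 5 against 3, no pair passed after adjustment. That comparison allows no p under 0.0179 in its 56 splits, which 9 of the 12 pairs reached (adjusted p = 0.0794, exact permutation test). The differences there were of similar size, such as 1.22 for Mcm2 with Mcm6 and -1.05 for Pola1 with Pola2.

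**Figure D4:**
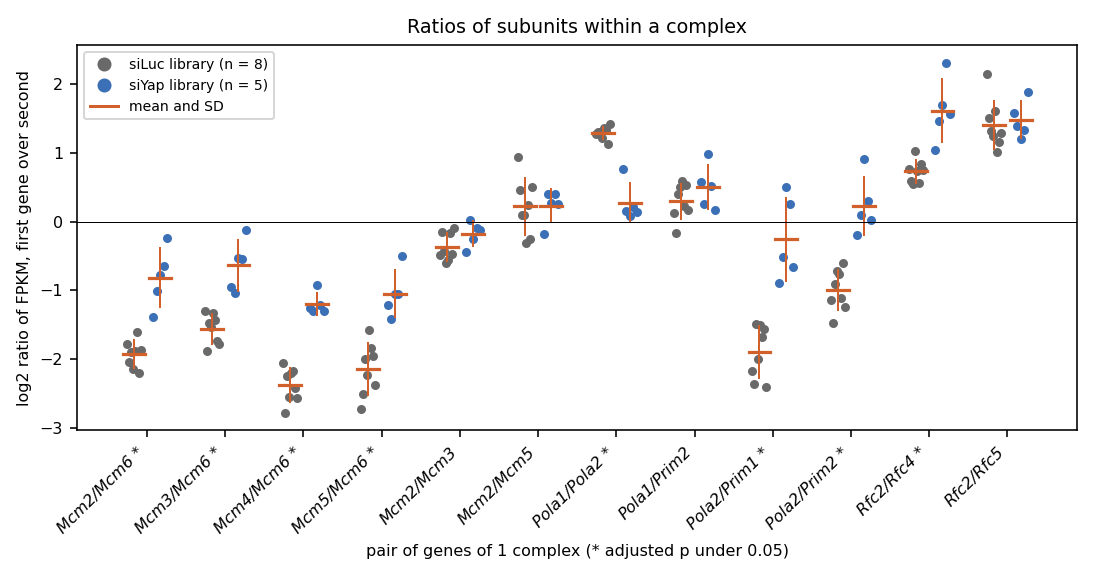
Log2 ratio of FPKM between 2 subunits of a complex in each library for 12 of the 40 pairs, where an asterisk marks the 8 shown that passed the exact permutation test; points are libraries, coloured by group, and the crossed lines are the group mean and SD. The pairs shown were picked after the data were seen and are not the 12 that passed. Those with an asterisk are the 8 whose call held without each library in turn. Passing pairs that lost their call without single libraries are not shown. The Pola1/Pola2 ratio lies between 1.13 and 1.42 in siLuc and between 0.08 and 0.77 in siYap, without overlap.

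Exons of 12 of the 44 genes overlap those of another protein-coding gene in GENCODE M21. Among the genes that fell these are Orc2 with Nif3l1, Mcm7 with Ap4m1 and Cops6, Gins2 with Gse1, Rfc4 with Eif4a2, Fen1 with Tmem258, and Tk1 with Afmid, each on the opposite strand. Whether the authors counted by strand is not given in the sources used here, so reads of such neighbours cannot be told apart from those of the 6 genes. The same holds for Rfc2 with Lat2 and Rfc5 with Wsb2, which were not called. Every clamp loader pair whose ratio differed holds Rfc2, Rfc4 or Rfc5, and the pair of Mcm6 with Mcm7 holds Mcm7, so this limit applies to those ratios too.

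The rest of the machinery was followed in 4 wider lists of genes outside the 44. Of 32 other replication factors 9 fell and none rose, with a median of -0.31 (beside 14.8% lower and 16.0% higher of all genes). Pold3, an accessory subunit of polymerase delta, fell from 13.65 ± 1.44 to 7.83 ± 1.06 FPKM (adjusted p = 0.000269), and Chaf1b, a histone chaperone behind the fork, from 4.07 ± 1.55 to 1.19 ± 0.303 (adjusted p = 0.000606). Both were lower in every siYap library than in every siLuc library. Orc4 fell from 31.6 ± 5.775 to 22.4 ± 5.73 FPKM (adjusted p = 0.0235), a call lost without siYap 1 (0.0591) or siYap 3 (0.0564). Pold4 stood at 28.4 ± 4.755 and 22.1 ± 6.52 FPKM and was not called (adjusted p = 0.105).

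Of 33 other genes of nucleotide synthesis and salvage 9 fell (27.27%, beside 14.8% of all genes), 1 rose and the median was -0.14. The 2 CTP synthases had the smallest p. Ctps fell from 20.4 ± 3.69 to 8.08 ± 2.79 FPKM (adjusted p = 0.000199) and Ctps2 from 17.5 ± 1.90 to 9.94 ± 1.35 (adjusted p = 0.000224), both without overlap. Nme2, a nucleoside diphosphate kinase, fell from 258.1 ± 58.6 to 170.1 ± 51.6 FPKM (adjusted p = 0.0254), a call lost without siYap 1, 3 or 4 (up to 0.0749). Paics, a purine synthesis enzyme, stood at 140.0 ± 22.3 and 131.2 ± 43.6 FPKM and was not called. The gene that rose was Dhodh, of pyrimidine synthesis, from 2.045 ± 0.377 to 3.015 ± 0.629 FPKM (adjusted p = 0.0204). It was not called without siYap 3 (0.0520) or siYap 4 (0.0511), and 5 genes of this list fell without siYap 1 or siYap 3.

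Of 21 regulators of the G1/S step 4 fell (E2f5, Ccne1, Ccna2 and Cdc25a) and 4 rose (E2f4, E2f7, E2f8 and Rbl2), with a median of -0.30. Each count is 19.05% of the list, close to the 14.8% lower and 16.0% higher of all genes. E2f8, an E2F factor known as a repressor, was between 0.228 and 1.18 FPKM in siLuc and at 2.23, 5.245, 2.22, 2.64 and 5.31 in siYap libraries 1 to 5. The groups did not overlap, and the log2 fold change was 2.78 ± 0.34 (adjusted p = 5.15e-05). Ccne1 (cyclin E1) fell without overlap, with means of 3.70 ± 1.42 FPKM in siLuc and 1.05 ± 0.435 in siYap. Its log2 fold change was -1.78 ± 0.31 (adjusted p = 0.000763).

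Rbl2, the pocket protein p130 that is abundant in resting cells, rose from 10.01 ± 2.07 to 16.1 ± 1.535 FPKM (adjusted p = 0.00261). Tfdp1, the partner of E2F factors, stood at 14.3 ± 3.80 and 14.9 ± 1.90 FPKM and was not called. E2f7, chosen after its values were seen as the close relative of E2f8, rose from 0.107 ± 0.0600 to 0.255 ± 0.0985 FPKM on 7 to 64 fragments per library (adjusted p = 0.0250), a call lost without siYap 1 (0.0767) or siYap 3 (0.0576). Without siYap 3, 2 of these 21 genes rose.

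Of 24 genes of mitosis 13 fell (54.17%, beside 14.8% of all genes) and none rose, with a median of -0.89. Cdc20, the activator of the anaphase-promoting complex, fell from 3.77 ± 1.21 to 0.935 ± 0.193 FPKM (adjusted p = 0.000144) and the kinesin Kif20a from 5.35 ± 2.15 to 1.40 ± 0.3725 (adjusted p = 0.000374). Both were without overlap. Mad2l1, of the spindle checkpoint, fell from 10.8 ± 3.305 to 4.77 ± 1.145 FPKM (adjusted p = 0.00176). Top2a, which untangles copied DNA, fell from 21.25 ± 10.3 to 9.39 ± 4.75 FPKM (adjusted p = 0.0337), a call lost without siLuc 2, 6 or 8 or any of siYap 2 to 5 (up to 0.0909). In this list 7 genes fell without siYap 3, 7 without siYap 4 and 8 without siYap 5.

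**Figure D5:**
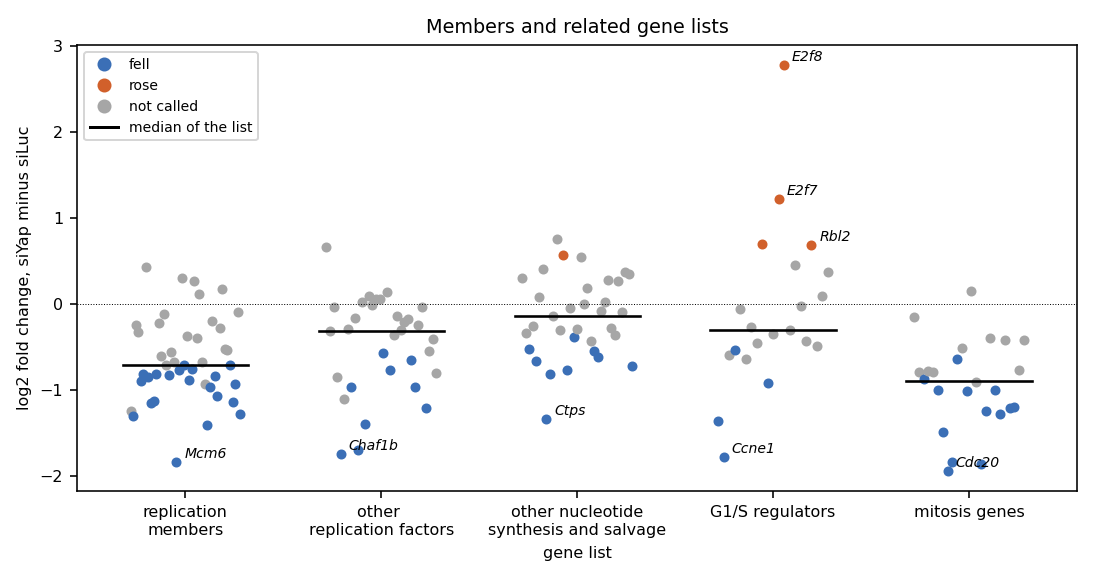
Log2 fold change from edgeR, siYap minus siLuc, for the 44 replication and nucleotide genes and for the genes of 4 related lists; each point is a gene, coloured by its call, and the line is the median. The medians are -0.71 for the 44 genes, -0.31, -0.14 and -0.30 for other replication factors, other nucleotide genes and G1/S regulators, and -0.89 for mitosis, and E2f8 stands apart at 2.78.

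Some markers of the cell types of a liver tumour also moved with the treatment. Of all genes, 14.8% were called lower and 16.0% higher. The summed FPKM of 8 cholangiocyte markers was 1953 to 5098 in siLuc and 170.5 to 1151 in siYap, and 4 of them fell (Epcam, Sox9, Spp1 and Pkhd1). Nearly all of this sum is Spp1 (1912 to 5012 FPKM in siLuc, 153 to 1130 in siYap), a gene that other cells also make. The other 7 markers summed to 40.9 to 95.9 FPKM in siLuc and 13.4 to 40.6 in siYap. The library siLuc 1 was the lowest of siLuc in Spp1 and in the other 7. The sum of 8 macrophage markers was 634 to 1354 in siLuc and 288 to 498 in siYap, with 5 lower and 1 higher. Neutrophil markers rose for 6 of 6, from 34.2 to 202.5 in siLuc to 162.5 to 1242 in siYap.

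The neutrophil sums overlapped between groups, and so did the sums of the remaining lists. The counts of called genes below stand beside 14.8% lower and 16.0% higher of all genes, and in lists this short 1 gene weighs heavily. For 8 hepatocyte markers the medians were 17640 in siLuc and 17930 in siYap, with 2 genes lower and 1 higher. For 8 T and NK cell markers they were 10.01 and 6.21 with 1 lower, and for B and plasma cell markers 35.5 and 53.1 with none called of 5 tested. For 7 endothelial markers they were 63.7 and 90.4 with 2 higher, for 8 stellate cell and fibroblast markers 192.2 and 208.2 with 3 higher, and for erythroblast markers 39.15 and 45.1 with 1 lower of 5 tested. The erythroblast marker Hba-a1 had 0 fragments, after rounding, in all 13 libraries, and every other marker found had fragments in at least 1. The part that a changed mix of cells has in the falls above was not tested.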

How the data were processed

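Tumour RNA was turned into libraries with the ScriptSeq Complete Gold kit, per the labels' protocols, and read on a HiSeq2500. The tools named, per the submitters' processing notes, are Cuffdiff 2.1.1, Cufflinks, TopHat2 2.0.8 and Trimmomatic 0.30, and the build is mm10. What each tool did, the annotation and the use of strand were not given in the sources used here. The authors deposited 1 Cuffdiff table per library. Per the file headers these hold raw fragments, which are estimated counts (97.6% to 98.0% within 1e-06 of a whole number), and FPKM. The replicate index of the siYap tables has gaps, so the FPKM scaling may have used libraries not analysed here. Alb, Apob and Trf, marked as too deep to estimate, were left out.

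The estimated counts were rounded and tested with edgeR 4.0.16 in R 4.3.3 (quasi-likelihood F test, robust, TMM, default filter on low counts) on all 13 libraries without covariates. Adjusted p are Benjamini-Hochberg values over 15132 genes, and each SE is the log2 fold change divided by the square root of F. Levels are FPKM, as mean ± SD with n = 8 siLuc and n = 5 siYap. Ratios of subunits are differences of log2 FPKM. The fit was tested on simulated data. No pair of libraries of 1 group agreed within counting noise (chi-square at least 34.8 times its degrees of freedom). Alternatives used DESeq2 1.42.0 and limma 3.58.1, other scalings, a replicate block, the file-name digit and number, and each library left out.

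The members and all lists were chosen with earlier results of these data known. Every member may be named. Values by library are given for the smallest p and the highest level in each role, and from each related list the 2 smallest p and the 2 highest levels are named. Dhodh, E2f7 and the listed calls of short lists were named after their values were seen. Gene coordinates are from GENCODE M21 (GRCm38, the build of mm10). Marker genes Adgre1, Ly6g and Jchain were not found under these symbols.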

Additional observations from a re-analysis of the deposited data

Results flagged for a closer look

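In each group the highest or lowest library of each of the 44 genes was set against the rest by Dixon's 95% criterion on FPKM. Of 88 such sets 6 held a library far from the others, and chance gives about 1 in 20. In siLuc 1 the lowest values stood apart for Gmnn (6.62 FPKM, the next library at 13.6), Pola1 (5.14, the next at 9.90) and Pola2 (2.14, the next at 4.21). In siYap 3, Orc2 stood apart at 3.875 FPKM with the next library at 5.765, and Prim2 at 2.71 with the next at 4.58. In siYap 1, Rrm2 stood apart as the highest siYap value, 6.28 FPKM, with the next at 3.425. The cholangiocyte markers were also lowest of siLuc in siLuc 1, at 1912 FPKM for Spp1 and 40.9 for the sum of the other 7, and siYap 1 and siYap 3 held the most ribosomal precursor RNA (1160 and 1882 CPM). The part of either in these values was not tested.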

How the results depend on the processing

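No member rose, and none of the 21 that fell changed sign, under any alternative run. The number that fell was 20 to 25 under other scalings, no filter, DESeq2, the file-name digit as a term and counts summed per file-name number, and 18 of 42 tested under limma on FPKM. It was 13 to 26 when each library was left out in turn and 12 without siYap 1 and siYap 3 together. It was 9 at an adjusted p under 0.01 and 4 with the replicate block. The block joins libraries by replicate number, and siLuc 6, 7 and 8 have no siYap library with their number. These siLuc libraries therefore add nothing to the treatment estimate of that fit. Prim1, Pcna, Rfc3 and Rfc4 were called in all 23 alternatives. Calls over all genes in either direction (4668, 30.8%) were 2325 with the block (15.36%) and 3325 without siYap 3 (21.8%). They were 2984 without siYap 1 and siYap 3 (19.38%) and 2362 at 0.01. The counts of the 44 genes are for lower only. Libraries with the same replicate number deviated together with correlations of -0.120, 0.127, 0.072, 0.118 and -0.087, and 1 of the 5 siYap libraries correlated best with its own number. These values gave no sign of pairing by number, but so few weak correlations cannot show that there was none.

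With the block, other replication factors that fell numbered 5, nucleotide genes 5 lower and 0 higher, G1/S regulators 2 lower and 2 higher, and mitosis genes 5. Without siYap 1 and siYap 3 together, 4 nucleotide genes fell and 2 G1/S regulators rose. At 0.01 the counts were 5 nucleotide genes lower and 0 higher, 2 G1/S regulators lower and 2 higher, and 6 mitosis genes. With 1 library left out, nucleotide genes that fell numbered 5 at the lowest and those that rose 0 to 2, G1/S regulators that rose 2 at the lowest, and mitosis genes 7 at the lowest. Nucleotide genes that rose numbered 2 with the digit term and 0 with counts summed per number. The subunit pairs that passed numbered 8 to 13 when each library was left out, 15 with FPKM + 0.1 or with fragments, and 0 over file-name numbers, where the smallest possible p is 0.0179 and 9 of the 12 pairs had it. The causes were not tested.

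Some genes that were not called changed sign on the log2 scale. Gmnn was at 0.0319 without siYap 1 and siYap 3. With 1 library left out, Mcm10 ran from -0.3264 to 0.0912, Pold2 from -0.0067 to 0.2330, Rpa1 from -0.0067 to 0.3099 and Paics from -0.1823 to 0.0667. Pold2 was at -0.0133 with counts summed per number, Tyms at 0.0105 with the block and 0.0425 without siYap 1 and siYap 3, and Paics there at 0.21. Orc1, Gins2, Gins3 and E2f2 rest on low counts, which limits their precision.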
